A study of Mus musculus with 6 samples.

Results

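The genes described here are 4 transporters of the blood-brain barrier, Slco1c1, Slco1a4, Slc2a1 and Slc6a13, and Acta2, the smooth muscle actin of mural cells. They were chosen by name and are 5 of the 329 gene symbols measured in the series. Each was read by 1 amplicon: Slco1c1 by NM_021471.2, Slco1a4 by NM_030687.1, Slc2a1 by NM_011400.3, Slc6a13 by NM_144512.2 and Acta2 by NM_007392.3.

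Molecules (UMIs, unique molecular identifiers) were counted per cell barcode with targeted BD Rhapsody primer panels, in cells of mouse hypothalamus sorted for tdTomato fluorescence and viability. All libraries share the strain C57/Bl6 and the genotype KLB-CRE; Ai14, so there is no other genotype to compare with. In this cross Cre is driven by Klb, the co-receptor gene of the hormone FGF21, and tdTomato then marks any cell whose lineage has expressed Cre, whatever it expresses now. Each of the 3 captures pooled 3 hypothalami, and neither age nor sex is given in the labels. The genes were measured in 4 of the 6 libraries, panel 1 of replicate 1 and panel 2 of replicates 1, 2 and 3. Panel 1 of replicate 1, so labelled, carries only the larger of the series' gene sets, which is the set of panel 2 in all replicates. Whether its label is right was not settled, so a difference between it and the panel 2 libraries is one between libraries and not shown to be one between panels.

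Barcodes with at least 20 UMIs and 5 genes were kept, 950 in panel 1 of replicate 1, against 44, 43 and 87 in panel 2 of replicates 1, 2 and 3. They held 105772 UMIs in panel 1, against 11423, 79560 and 109452 in panel 2, in the same order. The median barcode had 51 UMIs in panel 1, against 115.5, 1352 and 1068 in panel 2. No barcode was shared by any pair of the 4 libraries, but 21 further barcodes stood in tables of both replicate 2 and replicate 3 and were left out. Klb itself had no UMI in 1124 kept barcodes, which allows a share of up to 0.267%. The reporter tdTomato was in 29.6% of barcodes of panel 1, against 0%, 95.3% and 98.9% of panel 2 of replicates 1, 2 and 3, so panel 2 of replicate 1 goes against its sort in that transcript. Its values are given apart wherever a mean rests on it.

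The endothelial cells of brain capillaries are joined by tight junctions, so nutrients and hormones enter the brain through carriers in their membranes. Slco1c1 carries the thyroid hormone thyroxine, Slco1a4 carries organic anions such as bile salts and steroid conjugates, and Slc2a1 (GLUT1) carries glucose. Slc6a13 (GAT2) takes up GABA, betaine and taurine, and in mouse brain is best known in fibroblasts of the meninges and around vessels. Acta2 belongs to the contractile smooth muscle cells that wrap arterioles outside the endothelium.

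The promoter windows of the carriers whose counts moved together and of Acta2 are shown because they let the genes be set side by side as DNA. Each runs over 300 bases across the RefSeq start in build GRCm38.p6, 5′ to 3′ on the gene's strand. They lie at chr6:141524104-141524403 on the plus strand for Slco1c1, chr6:141856171-141856470 on the minus strand for Slco1a4, chr4:119108495-119108794 on the plus strand for Slc2a1 and chr19:34255324-34255623 on the minus strand for Acta2. Capitals mark CCAAT on either strand (CCAAT or ATTGG).
Slco1c1: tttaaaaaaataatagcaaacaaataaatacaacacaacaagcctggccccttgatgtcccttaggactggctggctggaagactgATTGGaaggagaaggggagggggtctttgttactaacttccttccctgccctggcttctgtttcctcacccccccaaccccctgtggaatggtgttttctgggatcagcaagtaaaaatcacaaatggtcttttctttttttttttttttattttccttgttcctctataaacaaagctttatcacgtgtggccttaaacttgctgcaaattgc
Slco1a4: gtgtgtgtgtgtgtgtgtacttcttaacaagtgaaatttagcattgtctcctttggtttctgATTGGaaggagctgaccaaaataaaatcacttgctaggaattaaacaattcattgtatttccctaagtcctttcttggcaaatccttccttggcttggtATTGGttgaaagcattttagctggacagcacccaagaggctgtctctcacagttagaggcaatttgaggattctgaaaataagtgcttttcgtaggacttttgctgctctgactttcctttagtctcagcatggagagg
Slc2a1: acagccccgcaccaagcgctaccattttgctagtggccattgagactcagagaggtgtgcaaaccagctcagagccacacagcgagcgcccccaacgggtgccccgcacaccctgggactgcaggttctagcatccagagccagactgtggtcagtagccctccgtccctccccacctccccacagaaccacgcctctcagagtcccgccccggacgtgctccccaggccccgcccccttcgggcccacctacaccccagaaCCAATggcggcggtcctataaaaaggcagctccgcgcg
Acta2: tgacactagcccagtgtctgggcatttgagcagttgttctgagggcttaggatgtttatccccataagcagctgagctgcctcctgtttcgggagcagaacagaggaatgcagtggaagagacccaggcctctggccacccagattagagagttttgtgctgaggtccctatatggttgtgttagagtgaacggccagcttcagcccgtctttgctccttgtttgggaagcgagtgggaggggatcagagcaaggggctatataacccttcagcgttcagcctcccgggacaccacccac

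The windows of Slco1c1 and Slco1a4, which are on the same chromosome, share the 14-base run CTGATTGGAAGGAG. Counted from the start site, it begins at position −167 in Slco1c1 and −191 in Slco1a4. Among 32851 promoter windows of the same length it stood in 2, those of these genes (0.00609%). The longest run shared by any other pair of the 4 printed windows was 7 or 8 bases. CCAAT matched once in Slco1c1, at 2 places in Slco1a4 and once in Slc2a1, with 0 matches in Acta2, and 37.4% of all windows hold it. TATAAA or TTTATA was found once each in Slco1c1 and Slc2a1 and in 13.6% of all windows, and CTTTGA or TCAAAG in none of the 4 and in 16% of all windows. All 5 genes matched the promoter table. Slc6a13 has 3 listed starts there and its windows are not printed. These matches describe letters, not binding.

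Slco1c1, Slco1a4 and Slc2a1 were among the most abundant transcripts of panel 1 of replicate 1, while Slco1c1 and Slco1a4 were at or near 0 in panel 2. Slc2a1 was also in nearly every barcode of panel 2 of replicates 2 and 3, but at a lower fraction of the UMIs. Acta2 was found in every library, and in most barcodes of each panel 2 library. The larger set stood under both panel labels for replicate 1 only, so no test between the panels could be made. The 2 libraries labelled replicate 1 shared no barcode, while all 87 barcodes of panel 2 of replicate 3 were also in its panel 1. Whether the 2 libraries of replicate 1 came from 1 capture was not tested. Values are given per library, with exact Clopper-Pearson 95% intervals for shares and exact Poisson 95% intervals for UMIs, which cover counting error only.

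Slco1c1 was in 820 of 950 barcodes of panel 1 of replicate 1 (86.3%, 84.0 to 88.4), with 3738 UMIs or 35.3 per 1000 UMIs of the library (34.2 to 36.5). It had no UMI in any panel 2 library, which allows a share of up to 6.82%, 6.98% and 3.45% in replicates 1, 2 and 3. By UMIs it was the gene of rank 6 in panel 1. Of the 157 genes detected in panel 1 of replicate 1, 22.9% were at 0 in all 3 panel 2 libraries, so a gene absent from panel 2 was not rare in this set.

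Slco1a4 was in 670 barcodes of panel 1 (70.5%, 67.5 to 73.4), with 2369 UMIs or 22.4 per 1000. In panel 2 it was at 0 in replicates 1 and 2, with the limits given for Slco1c1, and in 18 of 87 barcodes of replicate 3 (20.7%, 12.7 to 30.7). Those 18 barcodes held 21 UMIs, or 0.192 per 1000, and none had over 2. Slco1a4 was thus detected outside panel 1 in replicate 3, at a level near that of a single UMI per positive barcode. The mean of panel 2 was 0.0640 ± 0.111 UMIs per 1000 (SD, n = 3), or 0.0959 without replicate 1, and it rests on replicate 3.

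Slc2a1 was in 711 barcodes of panel 1 (74.8%, 72.0 to 77.6), with 2904 UMIs or 27.5 per 1000. In panel 2 it was in 8 of 44 barcodes of replicate 1 (18.2%, 8.19 to 32.7), 42 of 43 of replicate 2 (97.7%, 87.7 to 99.9) and 87 of 87 of replicate 3. Per 1000 UMIs it gave 1.58, 9.82 and 6.84 in replicates 1, 2 and 3, a mean of 6.08 ± 4.17 (SD, n = 3), or 8.33 without replicate 1. Slc2a1 was the carrier that panel 2 held in all 3 replicates, and each of these levels lay under that of panel 1.

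Slc6a13 was in 223 barcodes of panel 1 (23.5%, 20.8 to 26.3), with 387 UMIs or 3.66 per 1000. In panel 2 it was in 41 of 44 barcodes of replicate 1 (93.2%, 81.3 to 98.6), 0 of 43 of replicate 2 and 67 of 87 of replicate 3 (77.0%, 66.8 to 85.4). Its levels there were 18.5, 0 and 1.5 per 1000, a mean of 6.66 ± 10.3 (SD, n = 3), or 0.749 without replicate 1. Slc6a13 did not follow the other carriers over libraries: it was highest where Slco1c1 and Slco1a4 were at 0 and Slc2a1 was lowest. That is 1 library, panel 2 of replicate 1, which had no tdTomato UMI. In panel 2 of replicate 2 Slco1c1, Slco1a4 and Slc6a13 were all at 0.

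Acta2 was in 415 barcodes of panel 1 (43.7%, 40.5 to 46.9), with 987 UMIs or 9.33 per 1000. In panel 2 it was in 44 of 44, 43 of 43 and 86 of 87 barcodes of replicates 1, 2 and 3. The levels were 49.8, 3.58 and 3.95 per 1000, a mean of 19.1 ± 26.6 (SD, n = 3), or 3.77 without replicate 1. Replicate 1 thus sets the Acta2 mean of panel 2, and replicates 2 and 3 lay under panel 1 in level while above it in share. In panel 2 of replicate 1, 3 barcodes held 48.9% of the Acta2 UMIs, one of them with 123 of its 165 UMIs in Acta2, and without these 3 the level was 35.6 per 1000. By contrast the 3 highest barcodes held 30.2% and 12.5% of Acta2 in panel 2 of replicates 2 and 3.

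**Figure D1:**
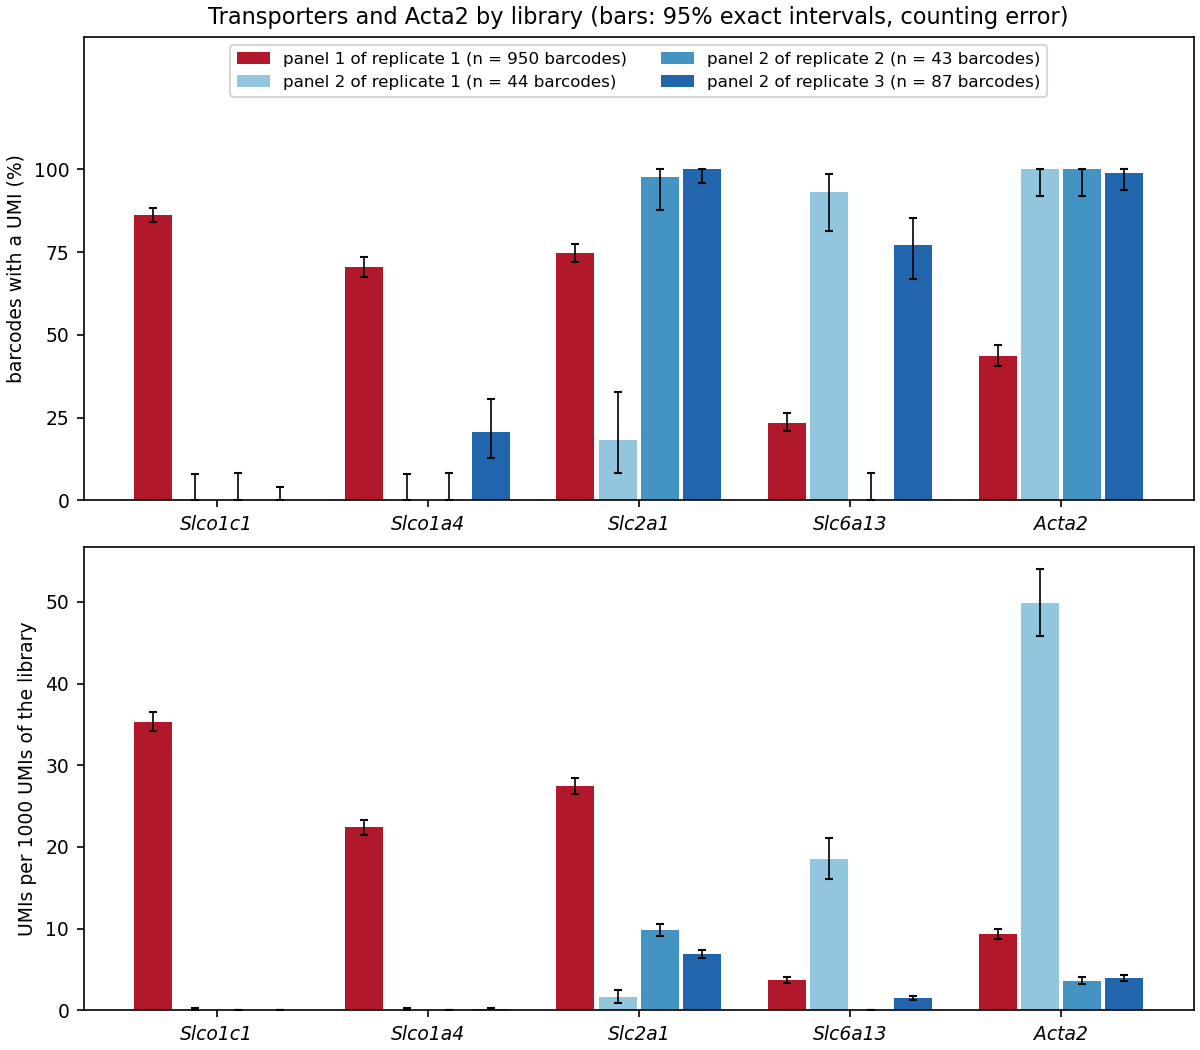
Share of barcodes with a UMI (upper axis, percent) and UMIs per 1000 UMIs of the library (lower axis) for the 5 genes in panel 1 of replicate 1 (red) and panel 2 of replicates 1, 2 and 3 (light to dark blue), with 95% exact intervals as error bars. Slco1c1 stands at 35.3 per 1000 in panel 1 and at 0 in panel 2, while Acta2 reaches 49.8 per 1000 in panel 2 of replicate 1.

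Of the 5 genes, 2 were at 0 in panel 2 of replicate 1 (70.7% of the 157 genes detected in panel 1 were), 3 in replicate 2 (44.6%) and 1 in replicate 3 (31.2%). These counts are not above the background of the gene set in replicates 1 and 3. Acta2 gave 0.340 UMIs per Slc2a1 UMI in panel 1, against 31.6, 0.365 and 0.577 in panel 2 of replicates 1, 2 and 3. The ratio was close in panel 1 and in panel 2 of replicate 2, higher in replicate 3, and far higher in replicate 1. Amplicons differ in efficiency, so these ratios compare libraries and not the amounts of the transcripts.

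Depth moved the shares. Reduced to 35 UMIs per barcode, Slco1c1 was in 67.4% of the 644 barcodes deep enough in panel 1, Slco1a4 in 49.9%, Slc2a1 in 56.7%, Slc6a13 in 12.1% and Acta2 in 24.0%. In panel 2 of replicates 1, 2 and 3 the same reduction gave 4.44%, 26.0% and 20.9% for Slc2a1, 50.9%, 0% and 5.34% for Slc6a13 and 81.7%, 11.8% and 13.1% for Acta2. At equal depth Slc2a1 and Acta2 were in more barcodes of panel 1 than of panel 2 of replicates 2 and 3, which turns round the order of their shares at full depth. Slc6a13 also turned round against panel 2 of replicate 3, from 23.5% against 77.0% at full depth to 12.1% against 5.34%. Against panel 2 of replicate 1 the order did not turn, with Slc2a1 in more and Acta2 in fewer barcodes of panel 1 at both depths. Slco1a4 in panel 2 of replicate 3 was at 0.656%, under the 49.9% of panel 1. That is near the level of a single UMI, so its distance from the 0% of panel 2 of replicates 1 and 2 is not read as a difference.

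Within panel 1 the barcodes were put into 4 depth groups of 237 or 238, with 20 to 30, 30 to 51, 51 to 119 and 120 to 3838 UMIs. From the shallowest group upward Slco1c1 was in 66.4%, 84.0%, 95.4% and 99.6% of barcodes. Acta2 was in 18.9%, 26.9%, 50.2% and 78.9%, and Slc6a13 in 7.56%, 11.8%, 22.4% and 52.3%. The level moved much less: Slco1c1 gave 33.8, 34.0, 29.6 and 37.0 per 1000, and Acta2 7.93, 7.23, 10.7 and 9.39. At full depth, then, the share of barcodes with a UMI followed depth while the fraction of UMIs stayed in a narrow range.

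**Figure D2:**
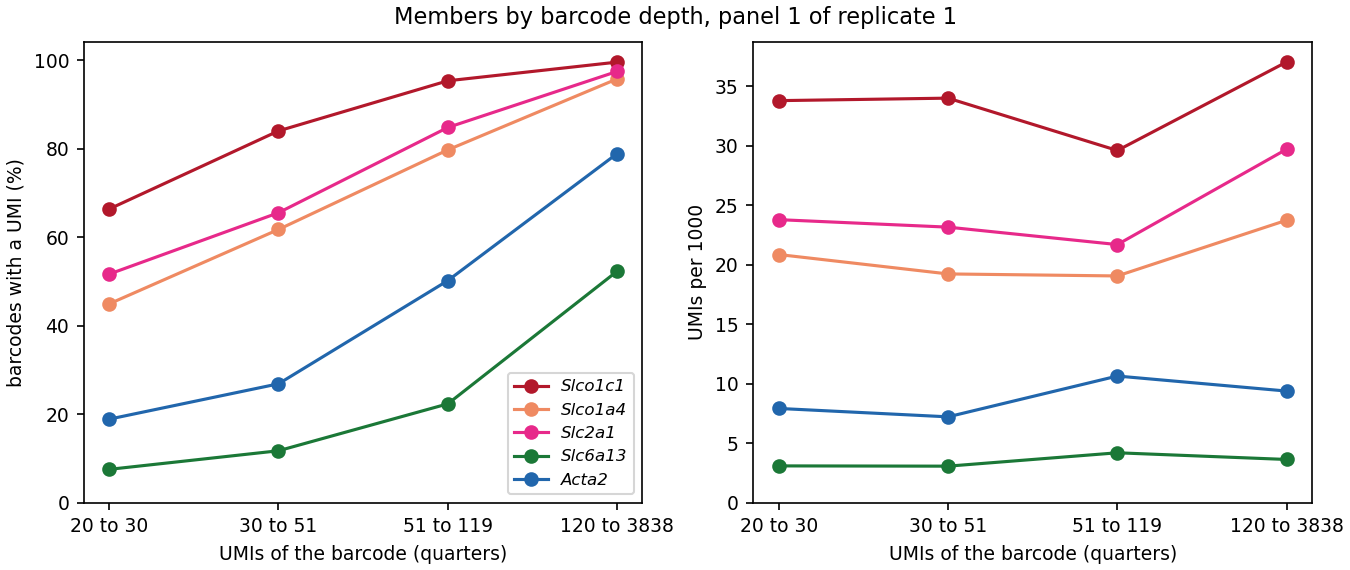
Share of barcodes with a UMI (left, percent) and UMIs per 1000 (right) of the 5 genes in the 4 depth groups of panel 1 of replicate 1, ordered by UMIs per barcode on the horizontal axis. All 5 shares are higher in deeper groups, with Slco1c1 at 99.6% and Acta2 at 78.9% in the deepest, while the levels per 1000 stay within a narrow range.

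The genes were also counted in barcodes with a transmitter marker of neurons, a UMI of Slc17a8, Gad1 or Gad2, since neurons should lack vessel carriers. In panel 1 there were 180 such barcodes, with a median of 133.5 UMIs, against 770 without, with a median of 45. Slco1c1 was in 94.4% of barcodes with a marker and 84.4% of those without, Slco1a4 in 86.1% and 66.9%, and Slc2a1 in 88.3% and 71.7%. Slc6a13 was in 40.6% of barcodes with a marker and 19.5% without, and Acta2 in 66.1% and 38.4%.

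At 35 UMIs per barcode the same shares were 65.5% with a marker and 68.0% without for Slco1c1, 50.6% and 49.7% for Slco1a4, and 55.7% and 57.1% for Slc2a1. For Slc6a13 they were 11.3% and 12.4%, and for Acta2 24.3% and 23.9%. The shares were close at equal depth, so a single UMI of these genes is not read here as expression by that cell. Levels per 1000 were 34.2 in barcodes with a marker and 36.2 without for Slco1c1, 23.7 and 21.5 for Slco1a4, and 28.0 and 27.1 for Slc2a1. They lay farther apart for Slc6a13, at 3.16 with a marker and 4.02 without, and for Acta2, at 8.0 and 10.3. Of the 180 barcodes with a marker, 141 had a single marker UMI, and whether such a UMI came from the cell itself was not tested. This comparison was made in panel 1 of replicate 1 alone.

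Barcodes were next compared by their excess over depth. For each gene and barcode the UMIs minus depth times the library share were divided by the square root of that expectation, and these depth residuals were correlated over the 950 barcodes of panel 1. Slco1c1 and Slco1a4 had Pearson r = 0.735, Slco1a4 and Slc2a1 0.585, and Slco1c1 and Slc2a1 0.571. Slc6a13 had −0.0717, −0.0783 and −0.0910 with Slco1c1, Slco1a4 and Slc2a1. Acta2 had −0.0955, −0.0880 and −0.0912 with the same carriers and −0.0401 with Slc6a13. The thyroxine, organic anion and glucose carriers were thus in excess in the same barcodes, and neither Slc6a13 nor Acta2 was in excess with them. The values below 0 are weak and their sign depends on the setting. By Spearman correlation of UMIs per 1000 the median with the 3 carriers was 0.0228 for Slc6a13, and Slc6a13 with Acta2 was at 0.0954.

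Over the 6105 pairs of 111 genes in at least 5% of barcodes, the median r was −0.0117 and 0.131% of pairs reached 0.5. The 3 pairs among Slco1c1, Slco1a4 and Slc2a1 were 3 of those 8, and the first was the highest of all. The barcodes share 1 library, so r is a description with no p. The median over the 6 pairs of 4 carriers was 0.25, and over the 4 pairs of a carrier with Acta2 −0.0896, a difference of 0.339. With Slc6a13 left out the median over the remaining 3 pairs was 0.585.

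The size of r rests on few, mostly deep barcodes. Without the 5% of barcodes with the most UMIs the r of the 3 pairs had a median of 0.217, and the difference from Acta2 was 0.112. Slco1c1 and Slco1a4 held the most, at 0.474. In the 475 deeper barcodes the median was 0.651, while in the 475 shallower ones it was 0.0830. By Spearman rank correlation of UMIs per 1000, which gives single barcodes little weight, it was 0.145, against 0.0335 for their pairs with Acta2.

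**Figure D3:**
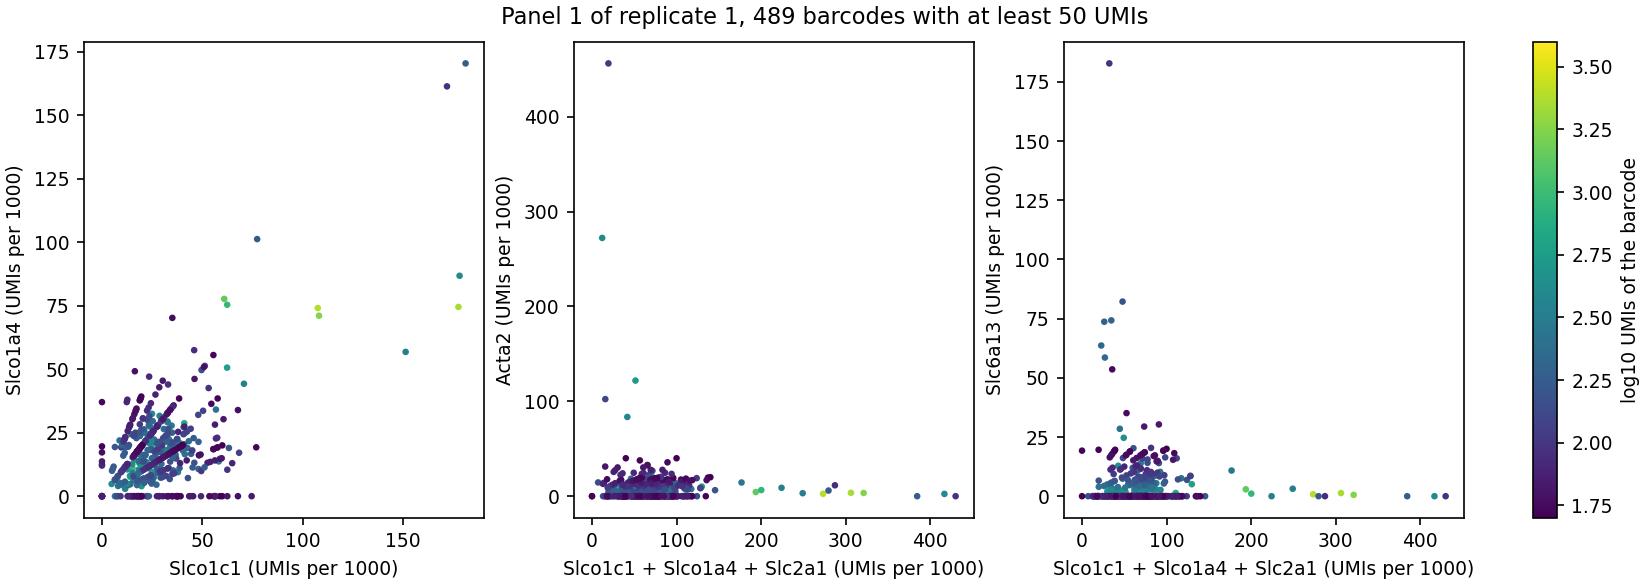
UMIs per 1000 of Slco1a4 against Slco1c1 (left), and of Acta2 (middle) and Slc6a13 (right) against the sum of Slco1c1, Slco1a4 and Slc2a1, for the 489 barcodes of panel 1 of replicate 1 with at least 50 UMIs, coloured by log10 of the UMIs per barcode. A few barcodes extend along the carrier axis with little Acta2 or Slc6a13, and others extend along the Acta2 or Slc6a13 axis with few carrier UMIs.

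In 13 barcodes of panel 1 the summed UMIs of Slco1c1, Slco1a4 and Slc2a1 had a depth residual of at least 6, a limit set after the values were seen. The lowest residual inside was 6.46 and the highest outside 5.23, and 1 barcode lay within 1 unit on each side. They had a median depth of 339 UMIs (42 to 2444), and the 3 carriers made up between 194 and 571 of every 1000 UMIs. These 1.37% of barcodes held 32.9% of the Slco1c1 UMIs of the library, 33.6% of Slco1a4 and 30.8% of Slc2a1. Pooled, their levels were 118, 76.3 and 85.7 per 1000, against 26.7, 16.8 and 21.5 in the 923 barcodes outside all 3 high sets.

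The carriers were not in a fixed ratio within these barcodes. The deepest, with 2444 UMIs, held 263 of Slco1c1, 181 of Slco1a4 and 224 of Slc2a1. The next, with 2256 UMIs, held 401, 168 and 122, and the one after, with 1774 UMIs, held 192, 126 and 252. A barcode with 42 UMIs had 18 of Slco1c1 and 6 of Slco1a4 but 0 of Slc2a1. All 13 had Slco1c1 and Slco1a4, and 12 had Slc2a1, and the one without Slc2a1 was that barcode of 42 UMIs. The set was cut on the sum of these genes, so their presence in it is no finding.

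Slc6a13 was in 6 of these 13 barcodes with 12 UMIs in all (1.15 per 1000, median over barcodes 0), and Acta2 in 10 with 39 UMIs (3.74 per 1000, median 3.38). Both lay under their level in the 923 other barcodes, which was 2.90 for Slc6a13 and 7.28 for Acta2. The cut on the 3 carriers by itself lowers the level per 1000 of every other gene in these barcodes. That part was not taken out. The mural gene Mustn1 had 8 UMIs in 5 of the 13, or 0.767 per 1000, against 3.53 in the other barcodes, and the fibroblast gene Lum, a matrix proteoglycan, 3 UMIs in 3 of the 13. Fn1, also a fibroblast marker, went the other way, at 103 per 1000, against 45.3. Cspg4 (NG2), a proteoglycan of pericytes and oligodendrocyte precursors, was at 16.8 per 1000, against 40.3 in the other barcodes.

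Acta2 had a depth residual of at least 6 in 5 barcodes, the lowest at 10.9 and the next barcode outside at 3.57. They held 47 Acta2 UMIs of 103, 13 of 127, 32 of 383, 113 of 415 and 64 of 525. This is 27.3% of the Acta2 of the library, at 173 per 1000. Slco1c1 was at 14.8 per 1000 in them, Slco1a4 at 7.73 and Slc2a1 at 10.9, each under the level of the other barcodes. Here the cut on Acta2 by itself lowers the levels of the other genes. Cspg4 was at 101 per 1000, against 40.3 in the other barcodes. Mustn1 was at 5.80 per 1000, against 3.53 in the other barcodes, but on 9 UMIs in 3 of the 5 barcodes.

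Slc6a13 reached that limit in 9 barcodes, the lowest at 6.17 and the next outside at 4.52. Their Slc6a13 counts ran from 3 of 56 UMIs to 17 of 93, with 58.2 per 1000 when pooled and 27.4% of the Slc6a13 of the library. Slco1c1 was at 18.1 per 1000 there and Acta2 at 4.94. The cut on Slc6a13 likewise lowers the levels of the other genes in this set. The fibroblast genes Col3a1, a fibrillar collagen, and Lum were at 3.84 and 0.549 per 1000, against 6.15 and 0.935 in the other barcodes, on 7 UMIs and 1 UMI. Cspg4 was at 129 per 1000 and Rarres2 at 96.7, against 40.3 and 43.1 in the other barcodes. The median of Cspg4 over barcodes was 81.3 per 1000, against 93.3 in the Acta2 set and 39.0 in the other barcodes. Pooled level and median thus order the Slc6a13 and Acta2 sets differently. No barcode was in more than 1 of the 3 sets, which sets this small would also show if they were unrelated.

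**Figure D4:**
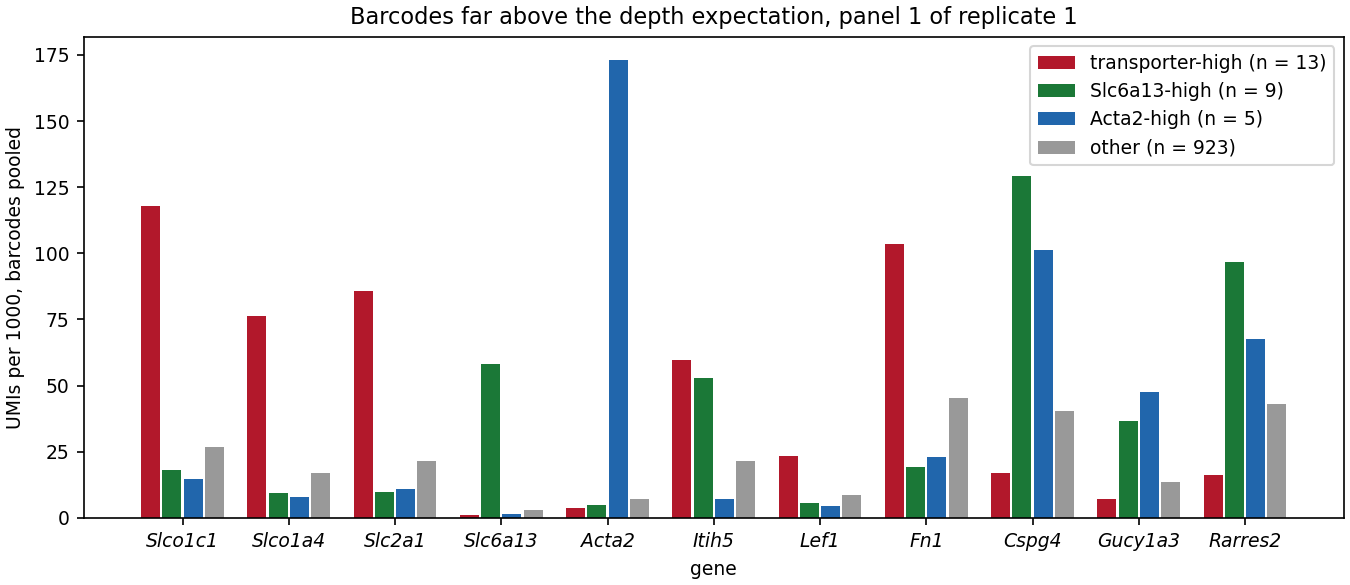
UMIs per 1000, pooled over barcodes, of the 5 genes and 6 others in the 13 barcodes high in Slco1c1, Slco1a4 and Slc2a1 (red), the 9 high in Slc6a13 (green), the 5 high in Acta2 (blue) and the 923 others (grey) of panel 1 of replicate 1. The sets were cut on the genes at left. Itih5 and Fn1 are high in the carrier set (59.8 and 103) and Cspg4 and Rarres2 low (16.8 and 16.2). Pooled, Itih5 is also high in the Slc6a13 set (52.7, against 21.4 in the others). Its median over barcodes there is 21.5, against 20.4 in the others.

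Genes outside the set were ranked by their residual correlation with each gene over the 106 that were in at least 5% of barcodes of panel 1. Nearest to Slco1c1 were Itih5 (r = 0.374), a matrix protein that binds hyaluronan, Lef1 (0.287), a transcription factor of Wnt signalling, Cxcl12 (0.268), a chemokine, Fn1 (0.254), fibronectin, and Vim (0.197), vimentin. Slco1a4 had the same 5, with Itih5 at 0.433 and Lef1 at 0.388. For Slc2a1 they were Lef1 (0.426), Itih5 (0.343), Timeless (0.224), a replication fork protein, Stra6 (0.223), a receptor for retinol uptake, and Cxcl12 (0.165). Lef1, Itih5 and Cxcl12 thus stood in the first 5 of all 3 carriers. In the 13 carrier-high barcodes, 1 barcode held 37 of the 54 Timeless UMIs and 1 held 36 of the 47 Stra6 UMIs. For Lef1 the highest barcode held 82 of 243 UMIs, for Itih5 192 of 623 and for Vim 76 of 209. For Cxcl12 it was 21 of 88 and for Fn1 236 of 1078. No r of Slco1c1, Slco1a4 or Slc2a1 with any of these genes was recomputed without the deepest barcodes.

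Slc6a13 was nearest to Cspg4 (0.232), Gucy1a3 (0.165), Itih5 (0.142), Fyn (0.136) and Rarres2 (0.113). Gucy1a3 is a subunit of the guanylate cyclase that senses nitric oxide, Fyn is a Src family kinase, and Rarres2 encodes chemerin. Acta2 was nearest to Gucy1a3 (0.285), Cspg4 (0.142), Npy1r (0.131), Gfra2 (0.115) and Rarres2 (0.111). Npy1r is a receptor for neuropeptide Y and Gfra2 one for neurturin. In the 5 Acta2-high barcodes, 1 barcode held 10 of the 12 Npy1r UMIs and 1 held 36 of the 46 Gfra2 UMIs. The median of Rarres2 over these barcodes was 34.3 per 1000, against 40 in the other barcodes. Gucy1a3, Cspg4 and Rarres2 were in the first 5 of both Slc6a13 and Acta2 and of no other carrier. Without the deepest 5% of barcodes Acta2 and Gucy1a3 were at 0.154, Slc6a13 and Cspg4 at 0.230, and Slc6a13 and Rarres2 at 0.0735.

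**Figure D5:**
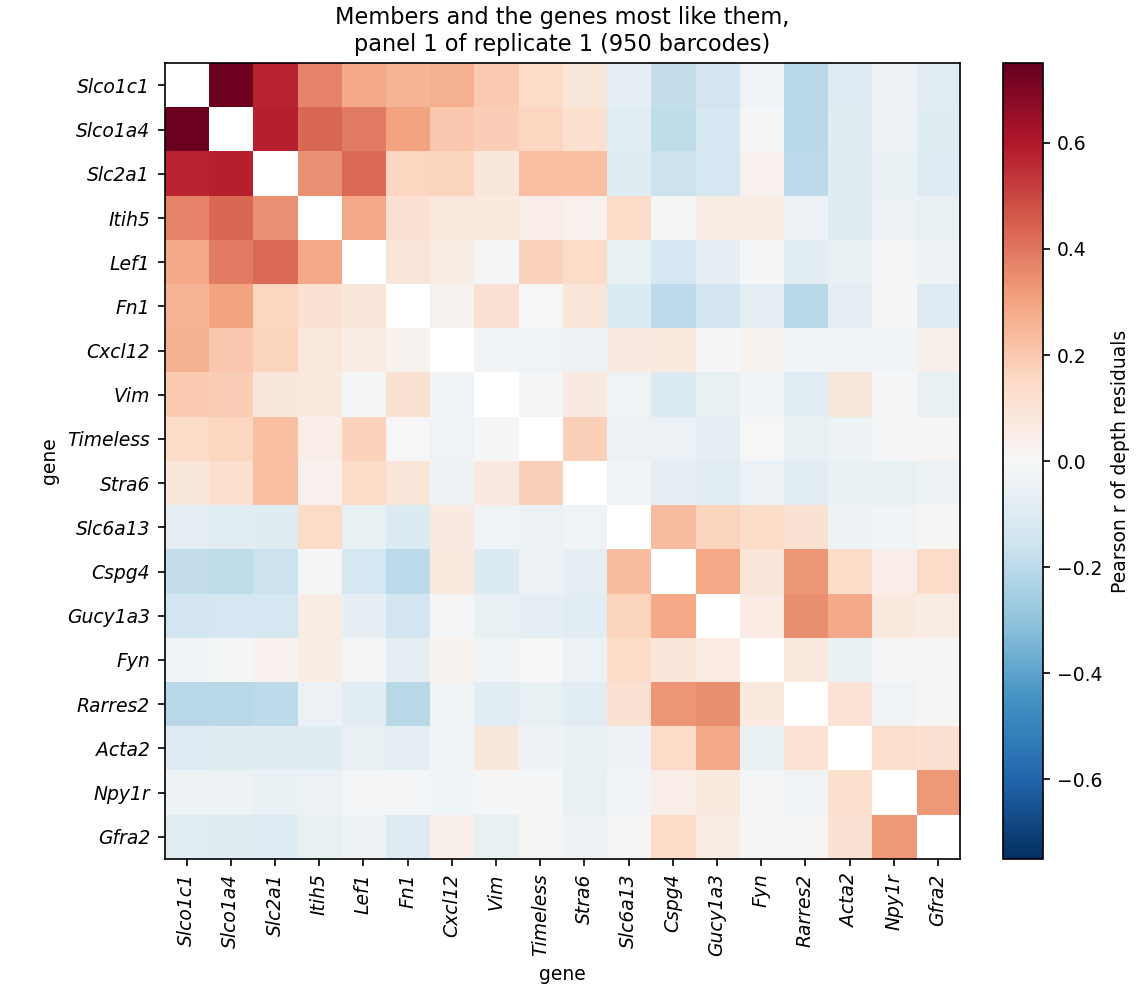
Pearson r of depth residuals over the 950 barcodes of panel 1 of replicate 1, for the 5 genes and the genes nearest to them (both axes), on a colour scale from blue (negative) to red (positive). Slco1c1, Slco1a4 and Slc2a1 form a block with r between 0.571 and 0.735, with Itih5 and Lef1 beside it, and Acta2 and Slc6a13 stand outside it with Cspg4 and Gucy1a3.

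In panel 2 the correlations could be computed only for genes with UMIs. Slc2a1 and Acta2 had r = −0.0629, −0.117 and 0.0490 in replicates 1, 2 and 3, weak in every capture. Slc2a1 and Slc6a13 had 0.50 in replicate 1, or 0.210 without the deepest 5% of its 44 barcodes, and 0.201 in replicate 3. In replicate 1 a single barcode held 87 of the 211 Slc6a13 UMIs. Slc6a13 and Acta2 had −0.130 in replicate 1 and 0.135 in replicate 3.

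The genes nearest to Acta2 in panel 2 were ranked among 41, 87 and 109 genes in replicates 1, 2 and 3. In replicate 1 they were Prim2 (0.0907), a primase subunit, Gja1 (0.0622), connexin 43, and Ndrg4 (0.0562). In replicate 2 they were Snx30 (0.604), Bmpr1a (0.514) and Camk2b (0.499). In replicate 3 they were Atp9b (0.301), Plekhg5 (0.299) and Commd9 (0.236). In replicate 1 even the first values were near 0. The 3 lists share no gene, which lists this short would also show if they were unrelated. Slc6a13 was nearest to Rarres2 in replicate 1 (0.949, or 0.818 without the deepest 5%) and to Anxa2 in replicate 3 (0.673), where Rarres2 followed it closely at 0.651.

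The marker lists of vessel cells were measured only in part. Of 21 endothelial markers 3 were in the larger set, and these are the carriers themselves, together at 85.2 per 1000 in panel 1, against 1.58, 9.82 and 7.04 in panel 2 of replicates 1, 2 and 3. The tight junction gene Cldn5 is not in the larger set. So endothelial identity could not be checked with markers outside the genes described. Of 15 mural markers 3 were measured, Acta2, Mustn1 and Cspg4, together at 53.0 per 1000 in panel 1, against 92.3, 9.23 and 12.7 in panel 2 of replicates 1, 2 and 3. Mustn1, a small nuclear protein of muscle, was in 23.2% of barcodes of panel 1 at 3.27 per 1000 and at 0 in panel 2 of all 3 replicates, so Acta2 in panel 2 stood without it. Cspg4 was at 40.4 per 1000 in panel 1, against 42.5, 5.64 and 8.80 in panel 2 of replicates 1, 2 and 3, and as said it is not a mural gene alone.

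Of 9 fibroblast markers 5 were measured, Slc6a13, Col1a1, Col3a1, Lum and Fn1. Together they were at 60.5 per 1000 in panel 1, against 18.5, 0 and 5.48 in panel 2 of replicates 1, 2 and 3. Col3a1 was in 35.7% of barcodes of panel 1, against 0%, 0% and 86.2% in panel 2 of replicates 1, 2 and 3, and Lum in 6.95%, against 0%, 0% and 66.7%. Fn1 was in 90.2% in panel 1 and 4.60% in panel 2 of replicate 3, and at 0 in replicates 1 and 2. Col1a1, the main fibrillar collagen chain, was at 0 in panel 1 and in 11.5% of barcodes of panel 2 of replicate 3 only. In panel 2 of replicate 1, where Slc6a13 was at its highest, all 4 other fibroblast genes were at 0, in a library where 70.7% of the genes detected in panel 1 were at 0, and Col1a1 was at 0 in panel 1 as well. In replicate 3 it stood beside Col3a1 and Lum. The part of these markers in the levels of Slc6a13 was not tested.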

How the data were processed

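The authors deposited UMI counts per cell barcode and amplicon, with no normalization. Per the file headers the BD Targeted Rhapsody Analysis Pipeline was version 1.3 for panel 1 of replicate 1 and 1.5 elsewhere. The rule for calling cells is not given in the sources used here. Hypothalami of mice were pooled for each capture, per the labels' protocols, so the capture is the replicate.

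Amplicons were summed by gene symbol. Barcodes with at least 20 UMIs and 5 genes were kept, which left out 605 of 1555 in panel 1 of replicate 1 and 0 elsewhere. Barcodes found in tables of more than 1 replicate were left out, and doublets were not called. Cells were not treated as replicates. Shares have exact 95% intervals, and a share of 0 has the limit that 3 counts allow. Shares at equal depth are expected shares after drawing 35 UMIs. The depth residual was tested on simulated data. For each of the 5 genes the last 500 bases of its transcript were checked. None of 470 stretches of 31 bases from each was in transcripts of another gene. Amplicon sequences were not at hand, so the amplicons themselves were not checked. The members, marker lists and rules were chosen with earlier results of these data known. The rule for named genes takes the members, the 5 genes nearest to each in panel 1 of replicate 1, the 3 nearest to Acta2 in each panel 2 library, and the measured endothelial, mural and fibroblast markers. Other genes named beside a result were chosen after their values were seen. Alternatives were other filters, other correlations, and leaving out deep, high or shared barcodes or a replicate. Promoters are from RefSeq. Results that rest on certain genes are not reported here. Python 3.11.15, numpy 2.4.6, pandas 2.3.3, scipy 1.17.1 and matplotlib 3.10.9 were used.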

Additional observations from a re-analysis of the deposited data

Results flagged for a closer look

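The values below are signals in barcodes that the comparisons do not use. The 605 barcodes of panel 1 of replicate 1 under the filter, with a median of 11 UMIs, held 39.6 UMIs per 1000 of Slco1c1, 16.7 of Slco1a4, 30.2 of Slc2a1, 2.22 of Slc6a13 and 5.47 of Acta2. The order of the 5 genes was the same as in the kept barcodes. The 21 barcodes found in tables of replicates 2 and 3, with a median of 294 UMIs, held 3.02 UMIs per 1000 of Slco1c1, 4.03 of Slco1a4 and 2.18 of Acta2, with Slc2a1 and Slc6a13 at 0. The mean profile of these 21 correlated by gene name with those of the 4 libraries at 0.18 to 0.213, against 0.48 to 0.936 among the 4 libraries, so the gene names of their counts are in doubt and no expression is read from them.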

How the results depend on the processing

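Of 177 recomputed values 8 changed sign, all of them weak correlations of Slc6a13 or Acta2. Shares and levels, which are most of the 177, cannot change sign. Of 75 recomputed levels, medians of the 3 carriers and differences from Acta2, 22 moved out of their range. Of the other 102 values 30 did, not counting the 8 that changed sign. The range was the interval or SD of the main value, or a fixed factor for a correlation. The median of the 4 carriers with Acta2 was 0.0444 by Spearman correlation, 0.0882 by Pearson correlation of log2 values with 1 added and 0.0164 in the 475 shallower barcodes, and that of Slco1c1, Slco1a4 and Slc2a1 with Slc6a13 was 0.0228, 0.0654 and 0.0252. Slc6a13 with Acta2 was at 0.0954 and 0.0534 by Spearman correlation and on log2 values. Without the 5% of barcodes with the most UMIs, the levels of panel 1 of replicate 1 were 29.8 UMIs per 1000 for Slco1c1, 18.4 for Slco1a4, 23.2 for Slc2a1, 4.38 for Slc6a13 and 8.13 for Acta2. Without the 10 barcodes highest in that gene, a setting added after seeing the data, they were 26.6, 16.8, 20.9, 2.69 and 6.75 in the same order. With only the amplicon with the most UMIs of each gene, Slco1c1 was at 36.6. Slco1c1 has 1 amplicon, so its counts per barcode do not depend on this choice. The total UMIs and the kept barcodes, then 929, do. The panel 2 mean of Slco1a4 was 0.374 with the 21 shared barcodes kept. Leaving out a replicate gave panel 2 means between 0 and 0.0959 for Slco1a4, 4.21 and 8.33 for Slc2a1, 0.749 and 9.99 for Slc6a13 and 3.77 and 26.9 for Acta2. The difference of medians between the 4 carriers and their pairs with Acta2 was 0.112 without the deepest barcodes, 0.0291 by Spearman correlation, 0.0244 on log2 values, 0.0206 in the shallower barcodes and 0.144 without the 10 barcodes with the highest summed residual, also added later. The median over Slco1c1, Slco1a4 and Slc2a1 was 0.217, 0.145, 0.172, 0.0830 and 0.242 in the same settings. Their cause was not tested. Depth limits the shares. No paired analysis was possible because the larger set stood under both panel labels for replicate 1 only.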
